A study of Arabidopsis thaliana with 4 samples.

Results

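The genes of the main seed reserves of Arabidopsis thaliana were examined for accessible chromatin in seedlings that had finished germinating. The set held 10 genes, chosen by name: the seed albumin genes SESA1 (AT4G27140), SESA2 (AT4G27150), SESA3 (AT4G27160), SESA4 (AT4G27170) and SESA5 (AT5G54740), the cruciferin genes CRA1 (AT5G44120), CRU2 (AT1G03880) and CRU3 (AT4G28520), and the oleosin genes OLE1 (AT4G25140) and OLE2 (AT5G40420). They are 10 of 27444 nuclear protein-coding genes of the annotation. A DNase I-seq peak was counted for a gene where it touched the gene span or the 2 kb on either side. Of the 36153 merged regions of the series, 11 did so.

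Albumins and cruciferins are stored in vacuoles of the maturing embryo, and oleosins coat its oil bodies. Their genes are among the most strongly transcribed of late seed development, under the activators LEC1, LEC2, FUS3 and ABI3 and partner bZIP factors. After germination the reserves are broken down to feed the seedling, and the genes are kept silent by VAL repressors, the remodeller PKL and Polycomb proteins.

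The samples were whole seedlings of the natural accessions Est-1, Bay-0, Tsu-1 and Bur-0, with 1 library each, grown for 7 days in long days (16 h light at 22°C, 8 h dark at 20°C). For all of them stratification lasted 2 to 4 days, and digestion used 45 units of DNase I for 3 min at 25°C. All 4 lines carry the INTACT label UBQ10:NTF::ACT2:birA: the UBQ10 promoter drives a nuclear tag and the ACT2 promoter the biotin ligase, so nuclei of most cell types are captured together. The labels give Col-0 as the genetic background of every sample although each title names another accession, and Tsu-1 of the sample labels is called Tsu-0 in the series text. The libraries gave 29699 nuclear peaks in Est-1, 28821 in Bay-0, 27388 in Tsu-1 and 25298 in Bur-0, nearly all 150 bp wide; read depth is unknown here. The strength of a peak is given as its rank, the percentile of the authors' signal within its own list, with 100 at the top. As each accession had 1 library, differences between accessions have no replicate check and no p-value, and intervals are 95% exact (Clopper-Pearson) intervals that cover counting error only.

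No storage protein or oleosin gene had a peak over its span in any accession. That is 0 of 10 genes, an interval that reaches up to 30.8%, against 45.7% of all protein-coding genes with a peak over the span in at least 1 accession. The storage genes are short, with spans of 688 to 2396 bp, and among all 14158 protein-coding genes in that range the share was 41.3%. The median span was 989 bp for the storage genes and 1617.5 bp for those 14158, so length is only partly matched. A peak over the span in all 4 lists at once was found for 0 of the 10 and for 22.7% of all genes. That 22.7% lies inside the interval of the storage genes, which reaches up to 30.8% here too. The 10 genes stand at 7 places in the genome, since SESA1 to SESA4 are neighbours, so they are not 10 independent observations. The nuclei came from whole seedlings, where open chromatin in fewer cells and weaker opening per cell cannot be told apart.

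Peaks came into view farther out. Within 500 bp of the span, 1 of the 10 genes, CRA1, had a peak in all 4 accessions, against 47.9% of all genes. Within 1 kb the count was 3 of 10, with CRU3 and SESA5 added, against 54.8%. Within 2 kb it was 4 of 10, with CRU2 added (40.0%, 12.2 to 73.8), against 63.3% of all genes and 60.8% of those with spans of 688 to 2396 bp. This last share of all genes lies inside the interval of the storage genes. Another 4 of the 10, SESA2, SESA3, SESA4 and OLE2, had no peak within 2 kb in any list (40.0%, 12.2 to 73.8), against 18.8% of all genes. This share of all genes lies inside the interval as well, and 3 of the 4 genes stand in 1 cluster.

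**Figure D1:**
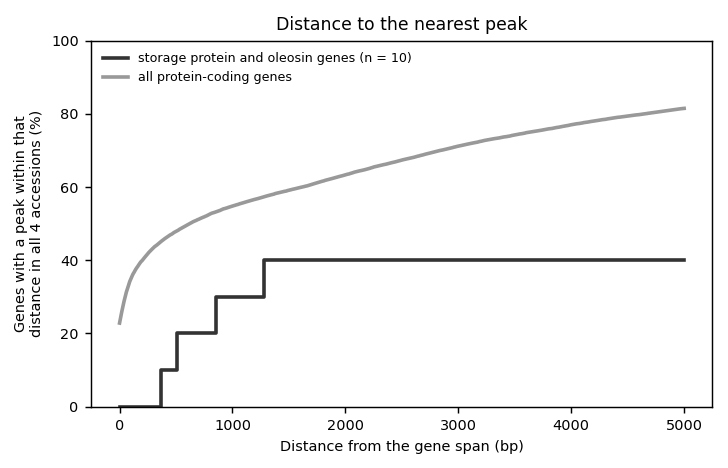
Share of genes (%) with a peak in all 4 accessions within a given distance (bp) of the gene span, for the 10 storage protein and oleosin genes (dark steps) and for all protein-coding genes (grey line). With peaks that abut the span counted at distance 0, the storage genes start at 0 where all genes start at 22.8%, and reach 40.0% where all genes reach 63.3% at 2000 bp.

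By accession, the number of storage genes with a peak within 2 kb was 6 in Est-1, 6 in Bay-0, 5 in Tsu-1 and 4 in Bur-0. The shares of all genes were 76.4%, 75.7%, 71.6% and 68.5% in the same order, so Bur-0 was the lowest and Tsu-1 the next for both. Each of these shares lies inside the interval of the storage genes in that accession (12.2 to 73.8% in Bur-0, for example). From the gene span to the nearest peak, the median distance over the 10 genes was 1063.5 bp in Est-1, 979 bp in Bay-0, 3068.5 bp in Tsu-1 and 6490 bp in Bur-0. Over all protein-coding genes it was 103, 106, 213 and 308 bp in the same order. In Est-1, Bay-0 and Tsu-1 each of the 10 genes lay farther from a peak than the median gene, and in Bur-0 9 did, CRA1 being the exception at 287 bp.

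The 11 regions near the storage genes mostly stood beside other genes. Every one of the 10 windows holds at least 1 other protein-coding gene, and for 10 of the 11 regions the gene nearest to the midpoint was not a storage gene. Of these, 6 were within 100 bp of that other gene or overlapped it. The matching shares for the windows and regions of all protein-coding genes were not computed. These counts therefore do not set the storage genes apart from other genes. CRA1 was the 1 gene of the 10 that was itself nearest to a peak within 2 kb, and it was so in all 4 lists. Among all protein-coding genes 60.0% were nearest to such a peak in at least 1 list and 39.7% in all 4, while the interval of the 1 in 10 runs from 0.253 to 44.5%.

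The windows of the storage genes held somewhat fewer peaks per length than those of all genes in each accession. They cover 45.1 kb, and held 10 peaks in Est-1, 11 in Bay-0, 10 in Tsu-1 and 9 in Bur-0. In Est-1 that is 0.222 peaks per kb, against 0.281 in the windows of all protein-coding genes, and in Bay-0 0.244 against 0.272. In Tsu-1 it is 0.222 against 0.258 and in Bur-0 0.199 against 0.238 peaks per kb. These differences were not tested. Of the 11 regions, 8 were called in all 4 accessions (72.7%, 39.0 to 94.0), against 54.3% of all regions, a share inside the interval. A further 2 were called in 3 accessions and 1 in 2. The farthest peaks inside the windows were those 1980 bp from CRU2 in Bur-0, Bay-0 and Est-1, with ranks of 92.6, 91.5 and 93.2, and the nearest one outside was a Tsu-1 peak 2153 bp from SESA5, with a rank of 2.31.

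**Figure D2:**
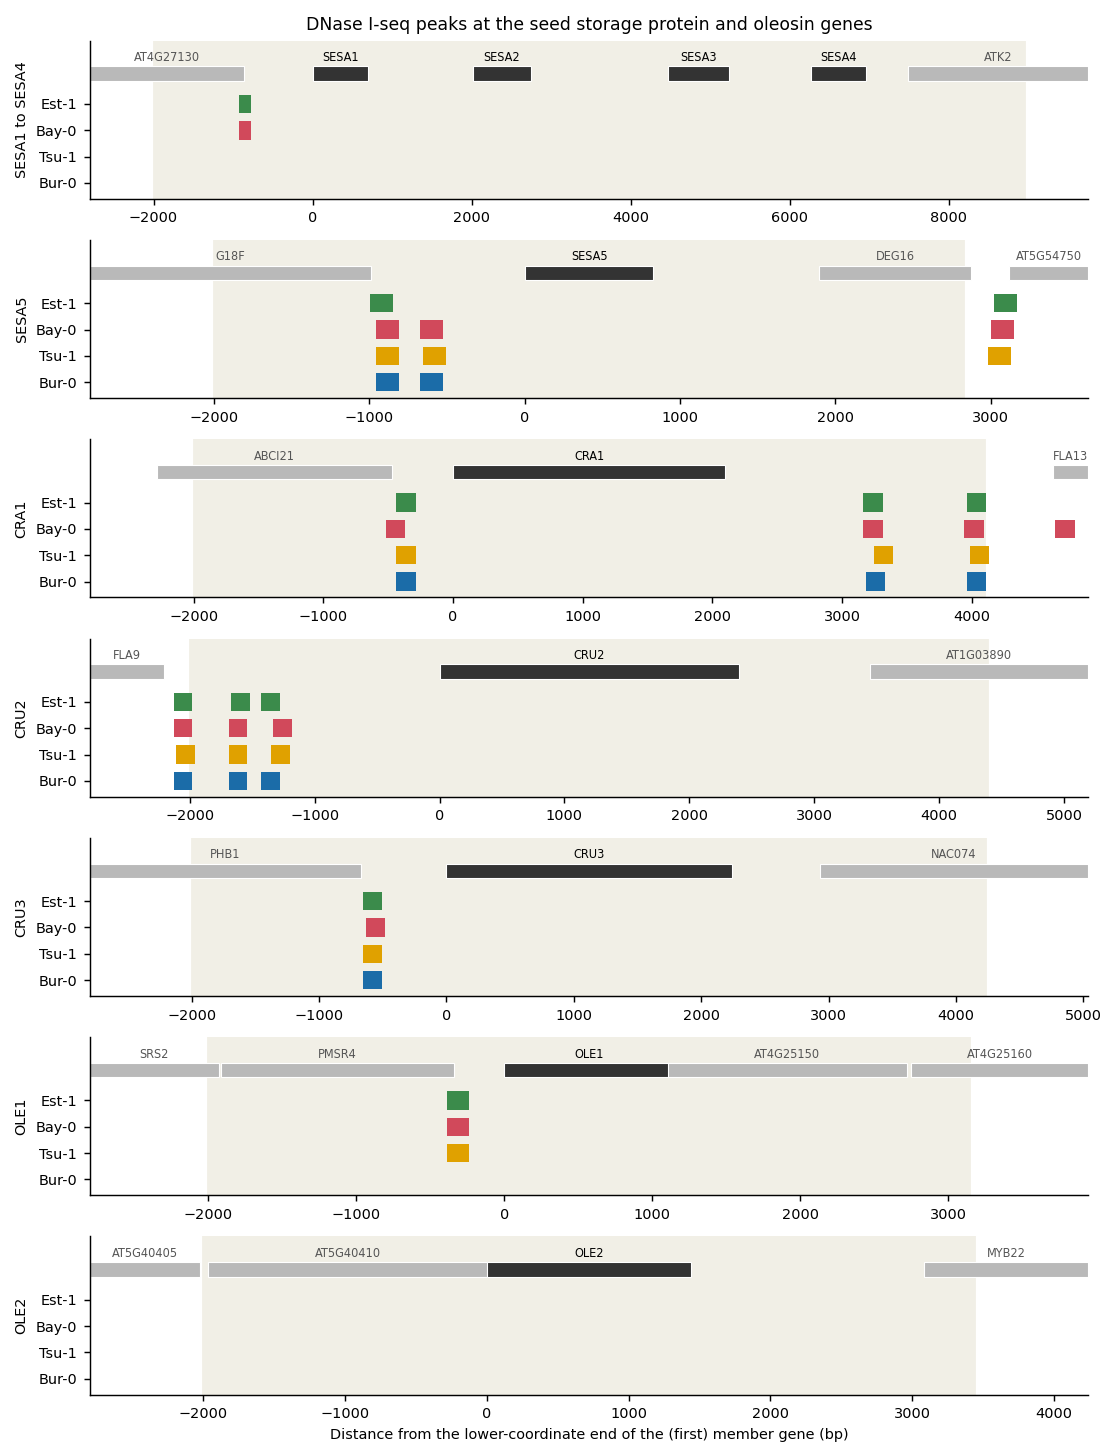
Peaks of the 4 accessions (coloured bars, 1 row each) and protein-coding genes (dark, storage protein and oleosin genes; grey, other genes) against the distance (bp) from the lower-coordinate end of the storage gene, or of SESA1 in the top panel. Shading marks the spans with 2 kb on each side, which hold 11 regions, none of them over a dark gene.

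The albumin cluster on chromosome 4 lay in a long stretch without peaks in every list. SESA1, SESA2, SESA3 and SESA4 encode closely related seed albumins and lie side by side over 6955 bp. Between neighbours lie 1032 to 1720 bp, and no other protein-coding gene of the annotation stands among them. No list had a peak between the outer ends of SESA1 and SESA4. Around the cluster the distance from the last peak before it to the first peak after it was 12630 bp in Est-1, 12630 bp in Bay-0, 32810 bp in Tsu-1 and 43050 bp in Bur-0. The median gap between neighbouring peaks in these lists was 1530 to 1630 bp. Gaps at least as long made up 5.03% of all gaps in Est-1, 5.31% in Bay-0, 0.924% in Tsu-1 and 0.759% in Bur-0. Such shares count gaps and take no account of their length. A long gap is more likely to hold a given gene than a short one. The share of genes that lie in gaps this long was not computed, here or for the stretches below.

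The shorter gap in Bay-0 and Est-1 was set by a single weak region. It lay at chr4:13606401-13606550 on TAIR10, 778 bp from SESA1, and overlapped the end of its neighbour AT4G27130. Its signal was 71 in Bay-0 and 63 in Est-1, with ranks of 7.66 and 2.33, and the authors' −log10 p of 4.18 and 3.67 stood near the lowest values of the lists (3.32 to 3.40). Bur-0 and Tsu-1 had no peak there, and on that side of SESA1 their nearest peaks were 11878 and 20918 bp away. On the other side, the first peak beyond SESA4 lay 4897 bp away in Bay-0 and Est-1 and 4937 bp away in Tsu-1, nearest to ATK2, a kinesin gene. In Bur-0 it lay 24217 bp away.

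SESA5, the albumin gene on chromosome 5 that stands apart from the cluster, had peaks within 2 kb in every accession, all on its lower-coordinate side. The first region, chr5:22237361-22237550, lay 807 bp from SESA5 and, through the Est-1 peak, reached the end of G18F, a gene of the autophagy family ATG18. Its signal was 216 in Est-1, 195 in Bay-0, 101 in Tsu-1 and 140 in Bur-0, and its ranks were 63.0, 63.5, 46.3 and 54.9 in that order. All 4 lists thus placed it near their middle. The second region, chr5:22237681-22237850, lay 507 bp from SESA5 and 310 bp from G18F. It had ranks of 28.4 in Bur-0, 42.9 in Bay-0 and 41.8 in Tsu-1, below the first region in each. Est-1 had no peak in the second region, and its peak in the first began 40 bp lower than in the other 3 lists.

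CRA1, which encodes a cruciferin of the main seed globulin, was flanked by peaks on both sides in every accession. The region on the lower side, chr5:17755721-17755950, lay 287 bp from CRA1 and, through the Bay-0 peak, reached the end of ABCI21, a gene of the ABC protein family. Its ranks were 92.2 in Est-1, 44.8 in Bay-0, 89.5 in Tsu-1 and 72.9 in Bur-0, from signals of 443, 142, 258 and 192. Bay-0 was lowest, and its peak began 80 bp lower than the other 3, which shared the same bounds.

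On the higher side of CRA1, a region at chr5:17759401-17759630 lay 1064 bp from the gene. This was the single region of the 11 with a storage gene as its nearest gene. It ranked 92.7 in Est-1, 79.2 in Bay-0, 55.7 in Tsu-1 and 71.6 in Bur-0, from signals of 452, 266, 119 and 187. The next region, chr5:17760181-17760370, lay 1844 bp from CRA1 and 494 bp from FLA13, a fasciclin-like arabinogalactan protein gene of the cell surface. It ranked 91.5, 73.6, 80.4 and 76.6 in Est-1, Bay-0, Tsu-1 and Bur-0.

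Est-1 had the highest rank of the 4 lists in each of the 3 regions at CRA1. Beyond the window, Est-1 also had a peak 2967 bp from CRA1 (chr5:17753121-17753270) with a rank of 87.2. The other 3 lists had a peak 3347 to 3367 bp away instead, ranking 25.1 in Bay-0, 31.8 in Tsu-1 and 2.96 in Bur-0. Whether these differences would repeat in a second library of each accession was not tested.

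CRU2, another cruciferin gene, had the strongest peaks of the 10 and none of them close. All 3 regions lay in the 2206 bp between CRU2 and FLA9, a second fasciclin-like arabinogalactan protein gene, and all 3 were nearer to FLA9. The region closest to CRU2, chr1:984321-984570, was 1180 bp from it and 776 bp from FLA9, with ranks of 91.5 in Est-1, 92.7 in Bay-0, 91.6 in Tsu-1 and 91.4 in Bur-0. The middle region, chr1:984061-984230, ranked 97.6, 93.0, 91.3 and 97.6 in that order, from signals of 588, 398, 275 and 487. The outer region, chr1:983621-983790, stood 76 bp from FLA9 and ranked 93.2, 91.5, 89.4 and 92.6. Every rank in these 3 regions was thus at least 89.4.

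From the inner of these regions the lists ran without a peak across CRU2 and its neighbour AT1G03890. That neighbour had been listed as the storage gene CRU4 and was dropped because its symbol did not match. The gap was 8750 bp in Est-1, 8650 bp in Bay-0, 8670 bp in Tsu-1 and 8750 bp in Bur-0, and it ended 2200 bp beyond AT1G03890 in each. Gaps that long or longer made up 9.46 to 12.9% of all gaps, a larger share than at the albumin cluster. How unusual either stretch is for a gene was not tested.

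CRU3, the cruciferin gene on chromosome 4, had 1 region within 2 kb, called in every accession. It stood at chr4:14086901-14087070, 485 bp from CRU3 and 18 bp from PHB1, a prohibitin gene of the mitochondrial inner membrane. The signal was 138 in Est-1, 141 in Bay-0, 62 in Tsu-1 and 90 in Bur-0, with ranks of 36.6, 44.3, 18.4 and 23.7 in that order. Each list placed the region below a rank of 50, with Bay-0 highest and Tsu-1 lowest. Toward NAC074, on the other side of CRU3, the window was without a peak in all 4 lists.

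**Figure D3:**
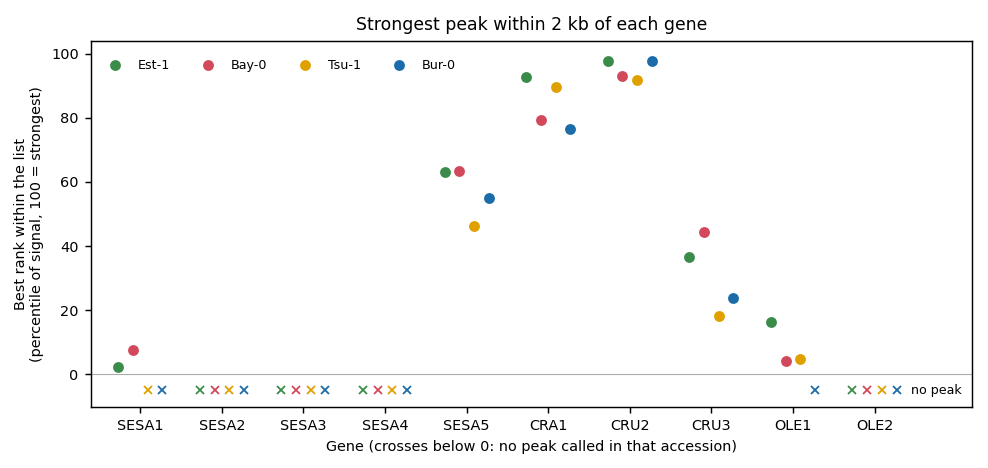
Rank of the strongest peak within 2 kb of each gene (percentile of the authors' signal within the list, 100 the strongest), with 1 point per accession and a cross where no peak was called. CRU2 lies between 91.6 and 97.6 and CRA1 between 76.6 and 92.7, while the peaks at SESA1 and OLE1 rank no higher than 16.3.

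The oleosin genes had few called peaks. OLE1 encodes an abundant oleosin of the seed, and its window held 1 region, chr4:12900041-12900190, 239 bp from OLE1 and overlapping the end of PMSR4, a methionine sulfoxide reductase gene. Its signal was 90 in Est-1, 65 in Bay-0 and 46 in Tsu-1, with ranks of 16.3, 4.11 and 4.67. Bur-0 had no peak there, and its nearest peak was 6263 bp away. The 3 lists that held it thus ranked it at 16.3 or lower.

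OLE2 encodes a second seed oleosin. It had no peak within 6697 bp in any accession, and the gap between the peaks on either side of it was 15250 bp in Est-1, 15190 bp in Bay-0, 15230 bp in Tsu-1 and 15190 bp in Bur-0. The 4 lists thus differed by 60 bp in the length of this stretch, and gaps as long or longer made up 3.47 to 5.35% of all gaps. The neighbour AT5G40410 overlaps the end of OLE2 and also had no peak in the 4 lists.

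The median best rank over the storage genes that had a peak was 49.8 in Est-1 (6 genes), 53.9 in Bay-0 (6 genes), 46.3 in Tsu-1 (5 genes) and 65.7 in Bur-0 (4 genes). Over all protein-coding genes with a peak it was 59.7, 60.0, 58.0 and 57.2 in the same order. The members with no peak have no rank, so these medians describe the genes with calls and not the set. With every list held to 25298 peaks, SESA1 lost its calls in Bay-0 and Est-1 and OLE1 lost its calls in Bay-0 and Tsu-1, while the 4 genes with a peak in every accession kept theirs.

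Other genes of the seed reserves were examined in the same way. Of 5 further genes of storage and oil bodies, 1 had a peak within 2 kb in all 4 accessions (20.0%, 0.505 to 71.6), against 63.3% of all genes, which lies inside that interval. It was PER1, a seed peroxiredoxin gene, with ranks from 7.24 in Bur-0 to 24.4 in Est-1. The oleosin gene OLEO3, the caleosin gene CLO1 and the steroleosin gene HSD1 had none in any list, with HSD1 at least 32311 bp from a peak. The treatment of reads from repeated sequence is not stated in any source used. The oleosin gene OLEO4 was called in Bay-0, where it ranked 60.0, and in Est-1, where it ranked 44.3, in both with a peak over its span. Of 4 genes for late embryogenesis proteins, which protect cells during drying, EM1 and LEA18 had peaks in all 4 lists (2 of 4, interval 6.76 to 93.2%), EM6 in all but Bur-0 and RAB18 in all but Tsu-1.

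Against 4 of the 10 storage genes, most genes listed as activators or repressors of the seed programme had a peak within 2 kb in every accession. Among 12 genes listed as activators of seed maturation, 9 did (75.0%, 42.8 to 94.5). By the lowest of their 4 ranks the leading genes were WRI1, which directs oil synthesis, at 74.1 to 88.9, and ABI5, a bZIP factor of abscisic acid response, at 65.2 to 80.2. The B3 factor gene FUS3, ABI4 and the bZIP gene EEL had no peak in any list. Among 8 repressors, 6 had a peak in all 4 lists (75.0%, 34.9 to 96.8). VAL2 had ranks of 96.9 (Tsu-1) to 99.1 (Bay-0) and VAL1 of 68.0 (Bur-0) to 82.0 (Bay-0); both encode B3 proteins that silence seed genes. The Polycomb gene EMF2 was called in Bay-0 and Est-1, with ranks of 13.3 and 3.28, and FIE in all but Tsu-1, at 5.86 or lower. The share of all genes, 63.3%, lies inside the intervals of the storage genes, the late embryogenesis genes, the activators and the repressors, and the lists were not tested against one another. Peaks near these genes can also belong to neighbours. In all 4 accessions, 8 of the 12 activators and 4 of the 8 repressors were themselves the nearest gene of a peak within 2 kb. For the storage genes it was 1 of 10, and for all genes 39.7%.

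All 4 genes examined for the sorting and cutting of storage proteins had peaks in all 4 lists. The interval runs from 39.8 to 100% and holds the 63.3% of all genes. BETA-VPE, the seed-type vacuolar processing enzyme that matures storage proteins, ranked between 91.1 (Bur-0) and 97.9 (Bay-0). GAMMA-VPE, its relative in vegetative organs, had ranks of 82.2 (Bur-0) to 91.3 (Bay-0). Both had a peak over the gene span in every list. For contrast, all 10 photosynthesis genes examined had a peak in every accession (interval from 69.2%, above the 63.3% of all genes). These are not 10 independent observations. Some Rubisco small subunit genes among them had the same best rank in each list (58.4 in Bur-0, for example), and the interval does not allow for this. RBCS1A, a Rubisco small subunit gene, ranked at least 97.1 and LHCA1, of photosystem I, at least 87.3.

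**Figure D4:**
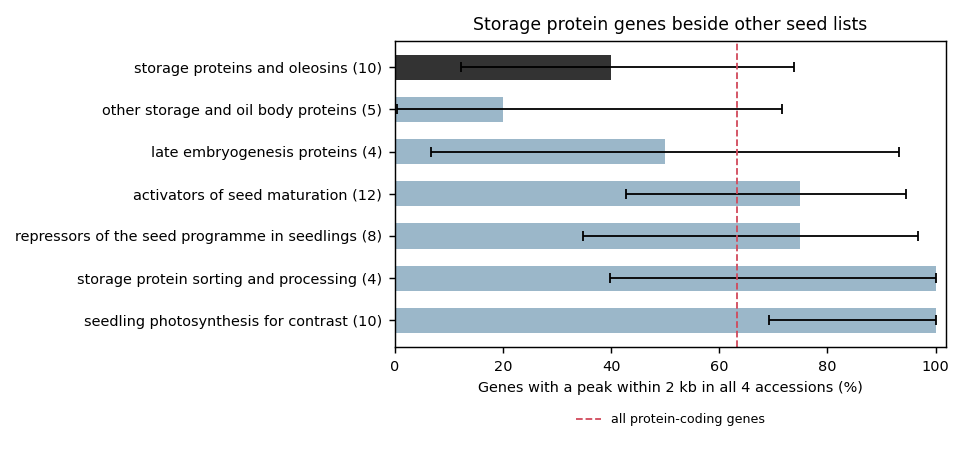
Share of genes (%) with a peak within 2 kb in all 4 accessions, for the storage protein and oleosin genes (dark bar) and 6 other lists (number of genes in brackets), with 95% exact intervals for counting error as error bars and the share of all protein-coding genes as a dashed line. The storage genes stand at 40.0%, the activators and repressors at 75.0% each and the photosynthesis genes at 100%.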

How the data were processed

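Per the submitters' processing notes, reads were aligned with Bowtie 0.12.7 and the build is TAIR10. No source used here names the peak caller, its threshold or the read depth. The lists, 1 per library, have no header. The deposited signal is the authors' whole number per peak, with no stated scaling, and was ranked only within its list. The deposited −log10 p column is the authors' value per peak, with a ceiling of 324.

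Peaks on the 5 nuclear chromosomes were set against gene spans of a RefSeq gene table (TAIR10.1). The peaks were shifted by up to 5000 bp. On each chromosome the number within 100 bp of the end of a protein-coding gene was highest at a shift of 0, so the coordinates fit. The table gives no strand, so promoters and gene starts were not told apart. A peak had to overlap a window by at least 1 bp, and touching or overlapping peaks were merged into regions. A peak's nearest gene is the gene of any type closest to its midpoint. Distances count the bases between gene span and peak or region.

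All 10 storage genes are named with every peak in their windows. From 6 other lists, 43 genes, the text names those with a peak in fewer than 4 accessions and the 2 per list with the highest lowest rank. Of 56 identifiers 3 were dropped because the table gives another symbol or none. They were CRU4 (AT1G03890) and OLE5 (AT3G01570) of the other storage and oil body genes, and LEA76 (AT1G52690) of the late embryogenesis genes. The members, lists and alternatives were chosen with earlier results of these data known. Planned comparisons of promoter motifs and proteins were not run, as no sequences were used here. Window calls were tested on simulated data. Python 3.11.15, pandas 2.3.3, NumPy 2.4.6 and SciPy 1.17.1 were used.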

Additional observations from a re-analysis of the deposited data

How the results depend on the processing

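The absence of a call does not measure how closed chromatin is. Reads of accessions that differ from the Col-0 reference can align less well, depth is unknown, and the calls at SESA1 and OLE1 ranked at 16.3 or lower. No paired analysis was possible because each accession had 1 library. Of 87 recomputed values, 38 stayed within 1.5 times of the count or within a 95% interval around the median rank, and 49 did not. That interval treats the rank as a share of all peaks in the list. It is therefore narrow and does not measure the spread over the few storage genes with a peak. In Bur-0 even the step from 65.7 to 64.2 under ranking by −log10 p fell outside it. The 38 and 49 only sort the values, and none of these values has a test. Requiring 50% of the peak inside the window, and equally long lists, left each count of genes and regions within 1.5 times of the reported one. So did merging peaks up to 150 bp apart, run for the 2 region counts, and leaving out any 1 accession, run for the genes and regions in all 4 accessions. Without Bur-0, 5 genes had a peak in all the others, against 4.

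With 1 kb on each side, regions numbered 6 and those in all 4 accessions 3, and median best ranks were 36.6 in Est-1, 44.3 in Bay-0, 32.3 in Tsu-1 and 54.9 in Bur-0. With 500 bp on each side, 1 gene had a peak in all 4 accessions. By accession it was 2 genes in Est-1, 3 in Bay-0, 2 in Tsu-1 and 1 in Bur-0, with 3 regions, 2 of them in all 4, and median ranks of 54.2, 44.3, 47.1 and 72.9 in that order. With the gene span alone, each of these counts was 0. With the stronger 50% of each list, 2 genes had a peak in all 4 accessions, 3 genes in Est-1, 3 in Bay-0 and 2 in Tsu-1. There were then 7 regions, 5 of them in all 4, and median ranks of 85.5 in Est-1, 58.4 in Bay-0, 81.2 in Tsu-1 and 53.2 in Bur-0. These ranks were taken anew within the shortened lists. They are on another scale than the reported ranks and cannot be read against them. Counting only peaks whose nearest gene was a storage gene left 1 gene in each accession and in all 4, and 1 region, called in all 4, with ranks of 92.7 in Est-1, 79.2 in Bay-0, 55.7 in Tsu-1 and 71.6 in Bur-0. Equally long lists, also ranked anew, gave median ranks of 56.5 in Est-1, 67.4 in Bay-0 and 65.2 in Tsu-1. Ranking by −log10 p moved the median rank of Bur-0 to 64.2. All but the last of these settings count fewer peaks by construction; the cause of the shift under −log10 p was not tested.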

Other observations

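The cruciferin genes have neighbours of the same families. CRU2 lies beyond FLA9 and the prohibitin gene PHB2, CRU3 lies next to the prohibitin gene PHB1, and CRA1 lies next to FLA13. The peaks at the ends of the prohibitin genes differed in strength. At PHB2, 3600 to 3640 bp from CRU2, ranks were 95.6 in Est-1, 97.4 in Bay-0, 97.0 in Tsu-1 and 95.5 in Bur-0. At PHB1 they were 36.6, 44.3, 18.4 and 23.7 in that order. These neighbours were noticed after the values were seen.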
